A study of Mus musculus with 6 samples.

Results

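The aryl hydrocarbon receptor genes described here are 8 named genes among the 46095 gene symbols of the deposited table: Ahr, its repressors Ahrr and Tiparp, its classical targets Cyp1a1, Cyp1b1 and Aldh3a1, and the partner enzymes Por and Ephx1. They were picked by symbol because many flavonoids bind this receptor, and all 8 were found. RNA was measured in 3 libraries of 3T3-L1 cells given 0.125 μg/mL of Smilax glabra flavonoids and in 3 libraries of untreated 3T3-L1 cells. Both groups were labelled adipocytes and taken on day 8 of differentiation. 3T3-L1 is a single established line of mouse embryonic fibroblasts that can store fat once induced, and the flavonoids are an extract of a medicinal rhizome whose constituents the labels do not list. The labels do not tell separate cultures from repeat libraries, and the spread behind every p-value may therefore be technical.

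AHR waits in the cytosol bound to HSP90 chaperones. Aromatic ligands, among them dioxins, tryptophan products and many plant flavonoids, send it to the nucleus, where it pairs with ARNT and binds a DNA element with the core GCGTG near its target genes. Induction of Cyp1a1, Cyp1b1, Ahrr and Tiparp is the usual sign of an active receptor, and the proteins of Ahrr and Tiparp then dampen it. In cultured preadipocytes AHR is known as a brake on adipogenesis.

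Promoter sequence was available for 6 of the 8 genes (RefSeq, GRCm38.p6, 250 bases before to 50 bases after the start site). Those printed here belong to 3 targets whose levels lie far apart, the low Tiparp, the abundant Cyp1b1 and the almost unread Cyp1a1, and to Ahrr, each 5′ to 3′ on the strand of the gene. Capitals mark the core GCGTG or, on the other strand, CACGC.
Tiparp (chr3:65528197-65528496, plus strand): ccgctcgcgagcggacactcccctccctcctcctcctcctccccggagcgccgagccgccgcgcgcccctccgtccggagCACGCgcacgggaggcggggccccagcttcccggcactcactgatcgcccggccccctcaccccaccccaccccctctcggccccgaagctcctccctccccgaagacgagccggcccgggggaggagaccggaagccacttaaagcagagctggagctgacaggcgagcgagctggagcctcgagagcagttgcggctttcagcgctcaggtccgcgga
Cyp1b1 (chr17:79715012-79715311, minus strand): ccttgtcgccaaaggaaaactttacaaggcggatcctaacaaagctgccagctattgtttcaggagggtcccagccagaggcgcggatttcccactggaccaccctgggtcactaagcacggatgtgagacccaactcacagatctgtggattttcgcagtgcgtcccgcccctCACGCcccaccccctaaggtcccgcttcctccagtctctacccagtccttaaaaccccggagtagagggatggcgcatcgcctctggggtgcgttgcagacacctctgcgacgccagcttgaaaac
Cyp1a1 (chr9:57697363-57697662, plus strand): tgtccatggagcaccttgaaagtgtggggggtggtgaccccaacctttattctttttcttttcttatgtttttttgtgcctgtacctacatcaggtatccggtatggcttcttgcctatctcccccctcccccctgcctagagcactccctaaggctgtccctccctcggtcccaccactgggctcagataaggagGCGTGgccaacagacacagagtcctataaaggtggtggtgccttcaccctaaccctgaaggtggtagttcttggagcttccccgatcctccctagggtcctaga
Ahrr (chr13:74292282-74292581, minus strand): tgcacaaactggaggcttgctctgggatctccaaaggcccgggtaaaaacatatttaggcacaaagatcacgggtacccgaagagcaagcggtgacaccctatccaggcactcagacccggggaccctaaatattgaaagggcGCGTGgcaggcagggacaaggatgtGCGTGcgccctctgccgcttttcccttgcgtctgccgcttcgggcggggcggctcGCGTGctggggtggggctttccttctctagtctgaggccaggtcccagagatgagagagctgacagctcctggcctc
The core was present in 5 of the 6 promoters, with 3 matches each in Ahrr and Por, 1 each in Tiparp, Cyp1a1 and Cyp1b1, and 0 in Ephx1. Among all 32851 promoters of this length 32.4% hold it on either strand. The longer TNGCGTG, which contains the core, was found in Ahrr alone of the 6 and in 5.07% of all promoters. A match describes letters and is not evidence of binding.

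Transcript levels of the receptor and of Aldh3a1 were lower in flavonoid-treated cells, while the most abundant genes of the group, Cyp1b1, Por and Ephx1, did not pass the test and Cyp1a1 and Ahrr were almost unread in both groups. Levels are FPKM, fragments per kilobase of gene, scaled to library depth. Of the 8 genes, 6 averaged 1 FPKM or more over the 6 libraries and were tested with limma on log2(FPKM + 1) alongside all 11464 genes at that level, and Cyp1a1 and Ahrr were not tested. A gene is called here when its Benjamini-Hochberg adjusted p is under 0.05. Of the 6, 2 were called lower and 0 higher (3 lower and 0 higher by limma at an unadjusted p under 0.05, and 2 and 0 with voom on recovered fragments), where 5.13% of all tested genes were called lower, 4.86% higher and 9.99% in either direction. Groups did not overlap in 3 of the 6, against 34.3% of all tested genes. The median log2 change of the 6 was -0.37, beside -0.02 over all tested genes.

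**Figure D1:**
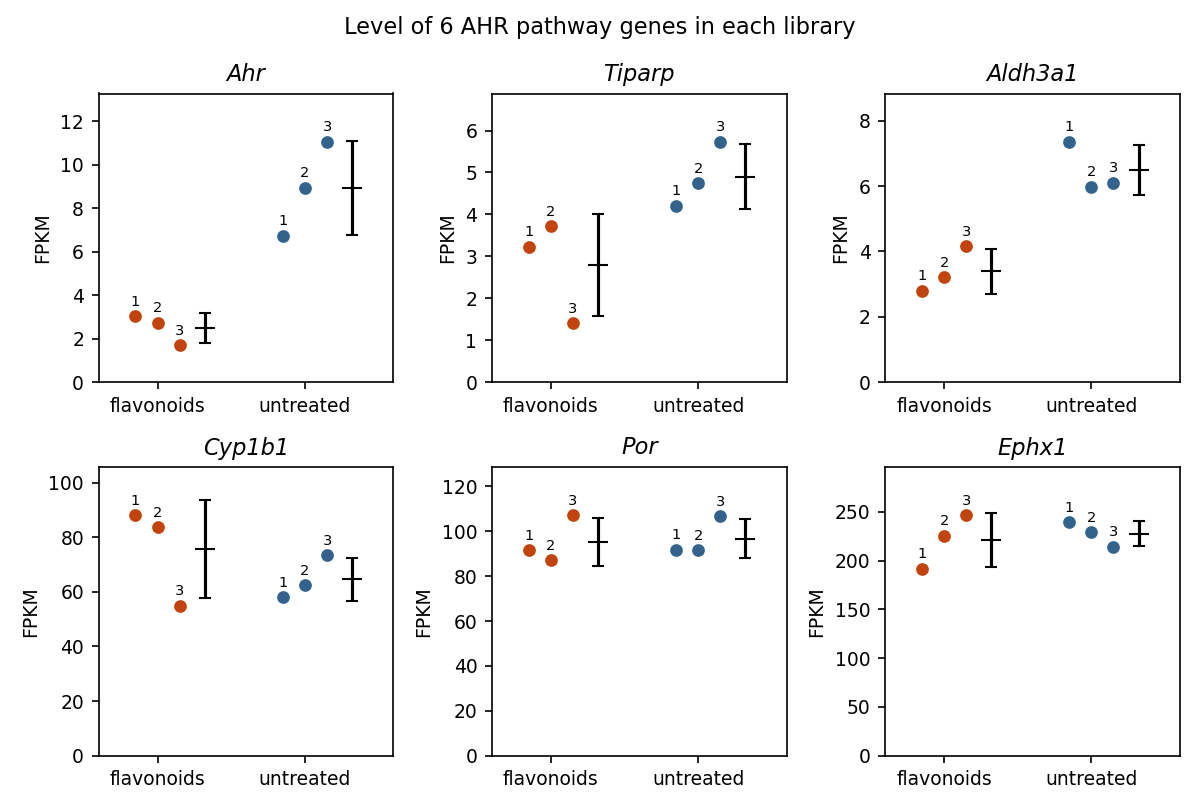
Level in FPKM of the 6 tested genes in each library (points, numbered by replicate; each panel has its own linear axis from 0), with the mean and SD of 3 libraries beside each group. Flavonoid-treated libraries lie below untreated libraries for Ahr, Tiparp and Aldh3a1, and the groups overlap for Cyp1b1, Por and Ephx1.

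Ahr, the ligand-binding receptor itself, measured 3.03, 2.74 and 1.69 FPKM in flavonoids replicates 1, 2 and 3, against 6.74, 8.93 and 11.1 FPKM in untreated replicates 1, 2 and 3. Every treated library was below every untreated one, with a wide gap between the groups. Behind these levels lie 416, 399 and 230 fragments in treated libraries and 818, 1148 and 1535 fragments in untreated libraries, so counting error is small beside the spread between libraries. The mean was 3.59-fold lower in treated cells, at 2.48 ± 0.704 FPKM against 8.91 ± 2.16 FPKM (SD, n = 3 each). The fitted log2 change was -1.51 (SE 0.21, 95% interval -1.98 to -1.03, limma adjusted p = 0.00582). By fitted change this was the 13th largest decrease of the 11464 tested genes. The call was kept in all 25 other settings that were run. Ahr lies on chromosome 12 at 35497974 to 35535038 on the minus strand (GENCODE M21, GRCm38), and 127 of its exon bases are shared with Gm48236, a noncoding gene on the opposite strand. Whether counting used strand is not known.

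**Figure D2:**
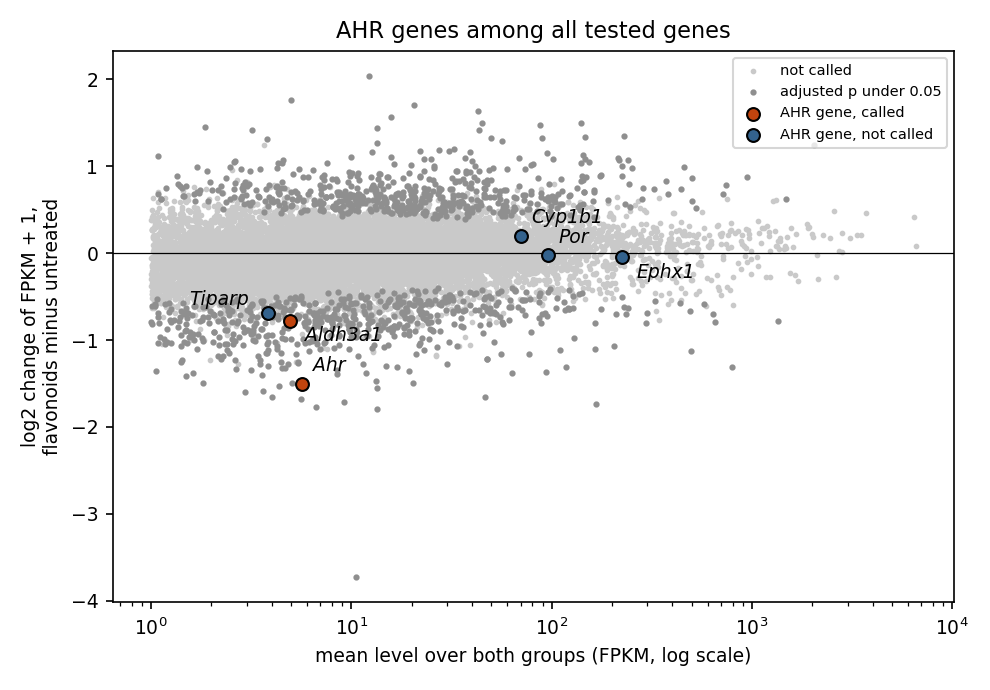
Log2 change of FPKM + 1 (flavonoids minus untreated, vertical axis) against mean level (FPKM, log axis) for all 11464 tested genes, with the 6 tested AHR genes marked. Ahr at -1.51 and Aldh3a1 at -0.78 are called, Tiparp at -0.69 lies close to Aldh3a1 but is not called, and the other 3 lie near 0 at high levels.

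The libraries differed in how level depended on gene length. The deviation of a gene's log2 level per doubling of its implied length was -0.01, -0.02 and -0.03 in flavonoids replicates 1, 2 and 3 and -0.12, 0.02 and 0.16 in untreated replicates 1, 2 and 3. Ahr is long, with an implied length of 5528 bases, and within each group its order over the libraries follows those slopes. With the smooth length trend of each library removed, the log2 change of Ahr was -1.41 (limma adjusted p = 0.000157).

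Markers of the labelled cell type were incomplete. Of 12 adipocyte markers 5 reached a mean of 1 FPKM (Fabp4, Pparg, Cebpa, Lpl and Lipe), while Adipoq, Plin1, Cd36, Slc2a4, Cfd, Cidec and Retn did not. Only the 5 at that level were tested, and 0 of them were called by limma (1, Lpl, at an unadjusted p under 0.05, and 0 with voom). All 6 preadipocyte or fibroblast markers were present, and their summed level was 2422 to 2780 FPKM in treated libraries, against 3310 to 3385 FPKM in untreated libraries. Of these 6 Thy1 was called lower, where 5.13% of all tested genes were called lower. By limma at an unadjusted p under 0.05, 4 were lower (Dlk1, Pdgfra, Thy1 and Col1a1). The share of all tested genes at that unadjusted cut was not counted. Pdgfrb averaged 104 FPKM in treated and 94.1 FPKM in untreated libraries. Macrophage markers summed to 1.92 to 2.62 FPKM in treated and 1.87 to 3.50 FPKM in untreated libraries with Ptprc at 0 throughout, and of 3 hepatocyte markers Alb and Ttr were at 0 throughout. Most of the fibroblast sum came from Vim and Col1a1, and neither was called. Vim averaged 1508 FPKM in treated and 1888 FPKM in untreated libraries (limma adjusted p = 0.26), and Col1a1 663 and 894 FPKM (adjusted p = 0.166). The summed fibroblast markers were thus lower beside Ahr in the treated libraries, and their part in the result for Ahr was not tested. In bulk RNA fewer cells of a type and less RNA per cell cannot be told apart.

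Tiparp and Ahrr encode the feedback arm. TIPARP is a mono-ADP-ribosyltransferase that is induced by AHR and modifies it, and AHRR competes for ARNT. Tiparp measured 3.23, 3.71 and 1.41 FPKM in flavonoids replicates 1, 2 and 3, against 4.21, 4.74 and 5.74 FPKM in untreated replicates 1, 2 and 3. The groups did not overlap, but flavonoids replicate 3 sat far below the other treated libraries. The means were 2.78 ± 1.22 FPKM in treated and 4.90 ± 0.776 FPKM in untreated cells. The log2 change of -0.69 (SE 0.25, 95% interval -1.25 to -0.13) was not called (limma adjusted p = 0.116). Without flavonoids replicate 3 the estimate was -0.39 (adjusted p = 0.203), and with the length trend removed the gene was called lower (log2 change -0.63, adjusted p = 0.0451). That call was lost again without flavonoids replicate 3 (0.0532) or untreated replicate 1 (0.0673), 2 (0.102) or 3 (0.111). Its exons share 223 bases with the pseudogene 4931440P22Rik on the opposite strand, which reached at most 0.429 FPKM in the table.

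Ahrr was read by 0, 2 and 1 fragments in flavonoids replicates 1, 2 and 3 and by 0, 1 and 2 fragments in untreated replicates 1, 2 and 3. Both groups thus hold 3 fragments in total, and no fold is given. In a library, 3 fragments are roughly the 95% upper limit for a count of 0, counting error only. For Ahrr this is 0.0252 FPKM in flavonoids replicate 1 and 0.0286 FPKM in untreated replicate 1, the libraries at 0.

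Cyp1a1, the cytochrome P450 whose rise is the standard readout of AHR activation, had 0 fragments in all 3 treated libraries and 1, 0 and 0 fragments in untreated replicates 1, 2 and 3. In a library, 3 fragments are roughly the 95% upper limit for a count of 0, counting error only. For Cyp1a1 this is 0.0419 to 0.0475 FPKM over the libraries at 0. Its paralog and neighbour Cyp1a2 was listed at 0 in all 6 libraries.

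Cyp1b1, the AHR-regulated P450 typical of mesenchymal cells, was abundant instead. It measured 88.1, 83.7 and 55.0 FPKM in flavonoids replicates 1, 2 and 3, against 58.1, 62.4 and 73.3 FPKM in untreated replicates 1, 2 and 3. Flavonoids replicates 1 and 2 were above all untreated libraries and flavonoids replicate 3 was below them all. The means were 75.6 ± 18.0 FPKM and 64.6 ± 7.85 FPKM in treated and untreated cells (log2 change 0.20, 95% interval -0.22 to 0.62, limma adjusted p = 0.533), an interval of 0.856 to 1.54 as a fold on the FPKM + 1 scale. Without flavonoids replicate 3 the estimate was 0.41 (adjusted p = 0.138), and with that library left out and the length trend removed as well it was 0.46 and called higher (adjusted p = 0.00537), a setting chosen after seeing the data. Over the 96 gene symbols of the P450 superfamily in the table, 15 reached a mean of 1 FPKM and 61 were listed at 0 in every library. Cyp1b1 had the highest mean, 70.1 FPKM over the 6 libraries, followed by the sterol demethylase Cyp51 at 26.3 FPKM.

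Aldh3a1, an aldehyde dehydrogenase that clears aldehydes of lipid peroxidation and is a classical member of the AHR gene battery in rodents, measured 2.79, 3.22 and 4.15 FPKM in flavonoids replicates 1, 2 and 3, against 7.36, 5.98 and 6.10 FPKM in untreated replicates 1, 2 and 3. All treated libraries were below all untreated ones. The mean was 1.91-fold lower in treated cells, at 3.39 ± 0.695 FPKM against 6.48 ± 0.765 FPKM (SD, n = 3 each). The fitted log2 change was -0.78 (SE 0.16, 95% interval -1.13 to -0.42, limma adjusted p = 0.0189). The gene is short, with an implied length of 1770 bases, and the estimate was -0.78 with the length trend removed. The call was lost without flavonoids replicate 1 (adjusted p = 0.0924), flavonoids replicate 2 (0.0754) or untreated replicate 2 (0.0866) and without a filter on low values (0.0686), and its adjusted p spanned 0.00231 to 0.0924 over its alternatives. Unlike in Ahr and Tiparp, flavonoids replicate 3 had the highest level of the treated libraries. Its position is chromosome 11, 61207537 to 61218421, on the plus strand.

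Por encodes the reductase that passes electrons from NADPH to microsomal P450s, heme oxygenase and squalene epoxidase. It measured 91.5, 87.0 and 107 FPKM in flavonoids replicates 1, 2 and 3, against 91.7, 91.7 and 107 FPKM in untreated replicates 1, 2 and 3. The ranges nearly coincide, with a log2 change of -0.02 (95% interval -0.31 to 0.27, limma adjusted p = 0.930), which as a fold on the FPKM + 1 scale is 0.805 to 1.2. The ratio of Cyp1b1 to Por within a library was 0.962, 0.963 and 0.513 in flavonoids replicates 1, 2 and 3 and 0.633, 0.681 and 0.687 in untreated replicates 1, 2 and 3, so here too flavonoids replicate 3 fell on the other side of the untreated libraries.

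Ephx1, the microsomal epoxide hydrolase that acts on the epoxides P450s make, was the most abundant of the 8 genes. Its levels were 191, 226 and 247 FPKM in flavonoids replicates 1, 2 and 3, against 239, 229 and 214 FPKM in untreated replicates 1, 2 and 3. The groups overlapped, with a log2 change of -0.05 (95% interval -0.35 to 0.26, limma adjusted p = 0.857). Of its exon bases 72 are shared with the pseudogene Gm36961 on the same strand, so reads there cannot be assigned with certainty. By mean level 97.0% of the tested genes lay below it, compared with 92.3% for Por, 89.4% for Cyp1b1, 34.4% for Ahr, 30.9% for Aldh3a1 and 24.9% for Tiparp.

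In order of level, treated cells had Ephx1, Por, Cyp1b1, Aldh3a1, Tiparp and Ahr, and untreated cells had Ephx1, Por, Cyp1b1, Ahr, Aldh3a1 and Tiparp, each followed by the almost unread Ahrr and Cyp1a1. Aldh3a1, Tiparp and Ahr lay within their spread of each other in treated cells (3.39 ± 0.695, 2.78 ± 1.22 and 2.48 ± 0.704 FPKM). The ratio of Ahr to its dimer partner Arnt was 0.190, 0.159 and 0.0908 in flavonoids replicates 1, 2 and 3, against 0.377, 0.405 and 0.471 in untreated replicates 1, 2 and 3. The ratio of Tiparp to Ahr was 1.07, 1.36 and 0.834 in the treated libraries and 0.624, 0.531 and 0.519 in the untreated ones, without overlap. For Aldh3a1 to Ahr it was 0.923, 1.17 and 2.46 in flavonoids replicates 1, 2 and 3. In untreated replicates 1, 2 and 3 that ratio was 1.09, 0.669 and 0.551, so the groups overlapped. Ahr, itself called lower, is the denominator of both ratios.

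The genes around the receptor were followed in 7 lists with 61 members, of which 38 were tested, 3 called higher and 2 lower, where 4.86% of all tested genes were called higher and 5.13% lower, so these counts lie near the background. Of the complex and dimer partners, 0 of 7 were called by limma, with 2 lower at an unadjusted p under 0.05 and a median log2 change of -0.03. With voom 1 of the 7 was called lower, Arnt2 (adjusted p = 0.0433), a dimer partner that measured 0.786, 0.681 and 0.890 FPKM in flavonoids replicates 1, 2 and 3, against 1.10, 1.73 and 2.06 FPKM in untreated replicates 1, 2 and 3. In limma its adjusted p was 0.0874, and 0.0261 without untreated replicate 1. The HSP90 gene Hsp90ab1 measured 1311 ± 82.4 FPKM in treated and 1053 ± 77.8 FPKM in untreated cells (adjusted p = 0.220, and 0.0195 with a log2 change of 0.33 with the length trend removed). The co-chaperone gene Cdc37 measured 157 ± 17.6 and 148 ± 22.5 FPKM (adjusted p = 0.740). Named after their values were seen, Arnt had a log2 change of -0.27 (adjusted p = 0.234) and the inducible HSP90 gene Hsp90aa1 one of -0.56 (0.158). Hsp90aa1 was called lower only with the length trend removed and flavonoids replicate 2 left out (0.0198). Without flavonoids replicate 3 its estimate was -0.27 (adjusted p = 0.281). Fits with the length trend removed and a library left out were chosen after seeing the data. Among ARNT-using relatives, 2 of 8 were tested and 0 called by limma, by voom or at an unadjusted p under 0.05. Hif1a measured 34.0 ± 9.55 FPKM in treated and 29.4 ± 4.0 FPKM in untreated cells (adjusted p = 0.643, and 0.00716 with the length trend removed and flavonoids replicate 3 left out), and Epas1 13.3 ± 2.16 and 12.1 ± 3.43 FPKM (adjusted p = 0.679).

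Of 12 other reported AHR targets, 7 were tested, 2 were called higher and 0 lower. Over all tested genes 4.86% were called higher and 5.13% lower. By limma at an unadjusted p under 0.05, 3 of the 7 were higher and 0 lower, and with voom 2 and 0. The median log2 change of the 7 was 0.25, beside -0.02 over all tested genes. This list was chosen with earlier results of these data known. Slc7a5, the light chain of a large neutral amino acid transporter and also a known ATF4 target, measured 138, 109 and 145 FPKM in flavonoids replicates 1, 2 and 3, against 53.8, 51.4 and 70.0 FPKM in untreated replicates 1, 2 and 3. Its log2 change was 1.15 (SE 0.16, limma adjusted p = 0.00588), and the groups were far apart. Hes1, a repressor best known as a Notch target, measured 67.5, 74.9 and 73.0 FPKM in treated libraries and 50.4, 46.6 and 44.0 FPKM in untreated libraries (log2 change 0.60, adjusted p = 0.0137). That call was lost without flavonoids replicate 1 (adjusted p = 0.0599), flavonoids replicate 2 (0.0757) or untreated replicate 2 (0.0942), out of a span of 0.00152 to 0.0942. Xdh, xanthine dehydrogenase, had 166 ± 28.9 FPKM in treated and 112 ± 15.1 FPKM in untreated cells and was not called (adjusted p = 0.0632), except with the length trend removed (0.00827, and likewise with the block or any library left out) or without untreated replicate 3 (0.0349), out of a span of 0.00753 to 0.178.

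Nfe2l2, which encodes NRF2, measured 45.3 ± 4.58 FPKM in treated and 43.9 ± 4.26 FPKM in untreated cells (limma adjusted p = 0.851). Nqo1, a quinone reductase of the AHR battery chosen here after its values were seen, had a log2 change of -0.13 (adjusted p = 0.606). The glutathione transferase gene Gsta1, also chosen afterwards and too low to test, was read by 11, 9 and 3 fragments in flavonoids replicates 1, 2 and 3 and by 0, 1 and 1 fragments in untreated replicates 1, 2 and 3. Its paralog Gsta2, likewise untested, was read by 8, 2 and 2 fragments in flavonoids replicates 1, 2 and 3 and by 0, 0 and 1 fragments in untreated replicates 1, 2 and 3. Gsta1 and Gsta2 are near-identical copies that may share reads, as may Ugt1a6a and Ugt1a6b, which share exons. Serpinb2, also untested and named afterwards, was read by 1, 0 and 1 fragments in flavonoids replicates 1, 2 and 3. In untreated replicates 1, 2 and 3 it was read by 0, 1 and 5 fragments. Cyp1a2 and Cyp2s1 of this list were at 0 throughout.

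**Figure D3:**
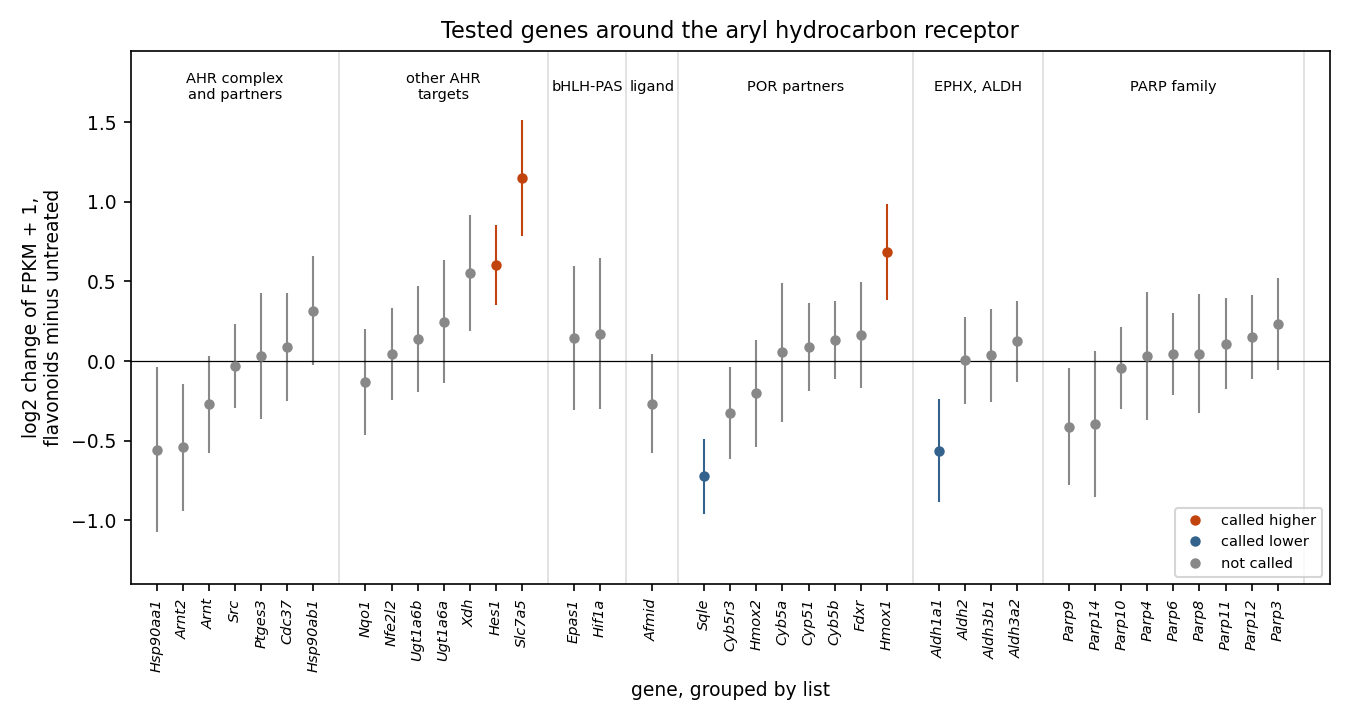
Log2 change of FPKM + 1 (flavonoids minus untreated) with its 95% interval for the 38 tested genes of the 7 lists, grouped by list. Slc7a5, Hes1 and Hmox1 are called higher, Sqle and Aldh1a1 lower, and no gene of the AHR complex or the PARP family is called.

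Of 8 redox enzymes listed around POR, not all of which work with it, 1 was called higher and 1 lower. Of all tested genes 4.86% were called higher and 5.13% lower. The median log2 change of the 8 was 0.07. Hmox1, heme oxygenase, measured 457, 441 and 514 FPKM in flavonoids replicates 1, 2 and 3, against 318, 287 and 272 FPKM in untreated replicates 1, 2 and 3 (log2 change 0.68, limma adjusted p = 0.0163). Sqle, squalene epoxidase of cholesterol synthesis, measured 70.9, 69.2 and 72.5 FPKM in treated libraries and 114, 123 and 117 FPKM in untreated libraries (log2 change -0.73, adjusted p = 0.00591). The Sqle call was lost without untreated replicate 2 (0.0621), and the Hmox1 call without any of the 3 treated libraries (0.0797, 0.0641 and 0.0610 without flavonoids replicates 1, 2 and 3) or untreated replicate 2 (0.112). Cyb5r3, cytochrome b5 reductase, had 372 ± 25.3 FPKM in treated and 467 ± 20.0 FPKM in untreated cells (adjusted p = 0.139, and 0.0212 with the length trend removed) and Cyb5a, cytochrome b5, 307 ± 14.2 and 303 ± 78.3 FPKM (adjusted p = 0.889).

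Among relatives of Ephx1 and Aldh3a1, 4 of 8 were tested, 0 called higher and 1 lower, with a median log2 change of 0.02. Over all tested genes 4.86% were called higher and 5.13% lower. The counts were the same with voom and by limma at an unadjusted p under 0.05. Aldh1a1, which oxidises retinaldehyde, measured 92.0, 90.3 and 93.7 FPKM in flavonoids replicates 1, 2 and 3, against 148, 154 and 111 FPKM in untreated replicates 1, 2 and 3 (log2 change -0.56, limma adjusted p = 0.0408). That call was lost without each of the 3 flavonoids replicates (adjusted p 0.144, 0.139 and 0.107) and without untreated replicate 1 (0.0543) or 2 (0.20), with median-ratio scaling (0.0594) and without a filter on low values (0.0953), out of a span of 0.00142 to 0.20. Aldh2, the mitochondrial acetaldehyde enzyme, measured 75.6 ± 8.13 and 75.2 ± 4.70 FPKM in treated and untreated cells (adjusted p = 0.987), and Aldh3b1 35.8 ± 1.52 and 35.1 ± 5.01 FPKM (adjusted p = 0.887).

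Of 10 ADP-ribosyltransferases related to TIPARP, 9 were tested and 0 called by limma or voom (1, Parp9, lower at an unadjusted p under 0.05). Over all tested genes 9.99% were called in either direction by limma. The median log2 change of the 9 was 0.04. Parp3 measured 23.6 ± 1.83 FPKM in treated and 20.0 ± 2.39 FPKM in untreated cells (limma adjusted p = 0.282), and Parp10 17.4 ± 1.28 and 18.0 ± 0.971 FPKM (adjusted p = 0.836). Of 8 genes for enzymes of tryptophan and kynurenine metabolism, which makes and consumes AHR ligands, 6 were listed at 0 in every library. They were Ido1 and Tdo2, which start the path from tryptophan to kynurenine, and Kynu, Kmo, Aadat and Il4i1. Afmid, the kynurenine formamidase that completes that path and the only one tested, measured 2.86 ± 0.385 and 3.63 ± 0.243 FPKM in treated and untreated cells (adjusted p = 0.253).

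Genes with a profile close to that of Ahr were ranked by the root-mean-square difference of centred log2(FPKM + 1) values over the 6 libraries, among 7242 named genes averaging 5 FPKM or more. The closest was Npr3, a natriuretic peptide clearance receptor, at 0.07 log2 units. It measured 11.5, 11.9 and 7.26 FPKM in flavonoids replicates 1, 2 and 3, against 23.7, 29.1 and 38.9 FPKM in untreated replicates 1, 2 and 3. Next came Lox (0.12) and Plod2 (0.14), which encode collagen crosslinking and lysine hydroxylating enzymes, then Filip1l (0.15) and Slfn9 (0.17). In all 5, as in Ahr, flavonoids replicate 3 was the lowest and untreated replicate 3 the highest library. The 5 were picked for closeness to Ahr over these libraries, so that shared order largely follows from the choice. All 5 are long, with implied lengths of 3735 to 7060 bases. The other AHR genes were farther away, with Tiparp at 0.44, Aldh3a1 at 0.54, Por at 0.80, Ephx1 at 0.81 and Cyp1b1 at 0.86 log2 units. A gene at the same level in every library would lie at 0.80, so Tiparp and Aldh3a1 were nearer to Ahr than such a gene. This ranking describes these libraries and carries no test.

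**Figure D4:**
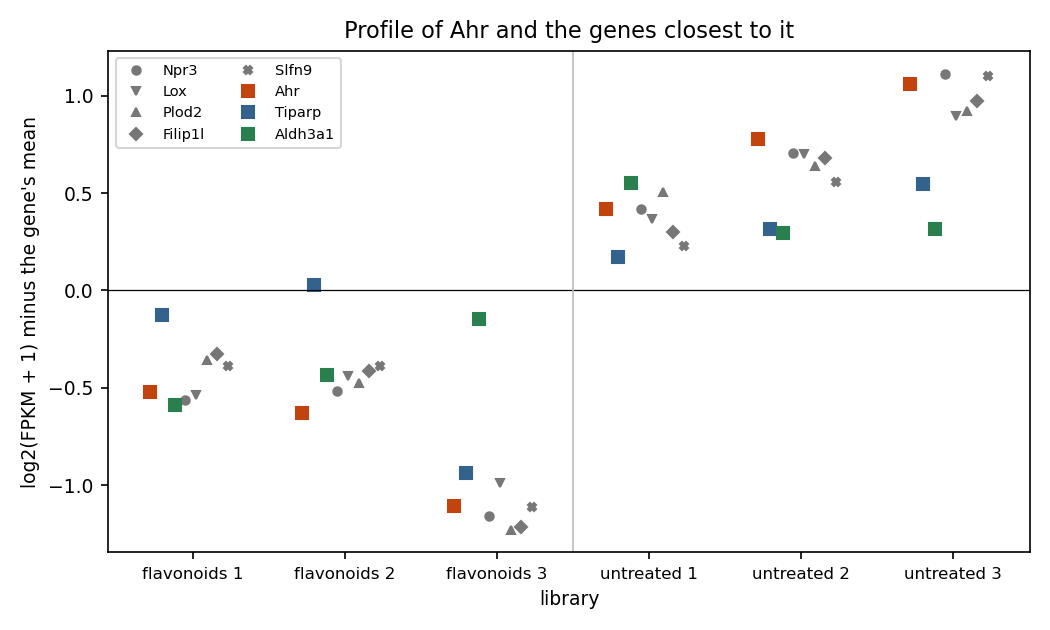
Log2(FPKM + 1) minus each gene's own mean in the 6 libraries, for Ahr, Tiparp and Aldh3a1 (squares) and the 5 genes closest to Ahr (grey symbols, offset sideways for legibility). The grey symbols, picked for closeness to Ahr, stay near it in every library, whereas Tiparp and Aldh3a1 each depart from Ahr, Aldh3a1 most in flavonoids replicate 3.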

How the data were processed

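The authors deposited FPKM values for 46095 gene symbols in 1 column per library, all of which were used. The submitters' processing notes name FastQC, HISAT2 and the build mm10. The counter, annotation and strand setting are not known here, so reads of paralogs and overlapping genes cannot be assigned with certainty. Steps between values gave whole fragments for all 22235 genes above 0, within 0.005 fragments, and totals of 24621562 to 26355863 per treated and 21952064 to 25083868 per untreated library. A number is too small where all of a gene's numbers share a divisor. Gene length was implied from the same steps.

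Genes averaging 1 FPKM or more were tested two-sided on log2(FPKM + 1), which understates changes of low genes, by limma 3.58.1 (R 4.3.3) with an intensity trend and no covariate. An exact permutation test of 3 libraries against 3 cannot go below p = 0.1 and was not used. The script was tested on simulated data. No library was a copy of another (chi-square per degree of freedom of at least 6.77, for flavonoids replicates 1 and 2). Spread within the untreated group was large, with 132 between its replicates 1 and 3. Untreated replicate 1 differed less from flavonoids replicates 1, 2 and 3 (80.0, 66.4 and 101.7), whereas untreated replicate 3 differed more from them (136.1, 133.5 and 173.2). The genes and lists were chosen with earlier results of these data known, and 1 listed gene is not reported here. Named were all 8 genes, the called and the 2 most abundant uncalled genes of each list, and the 5 genes closest to Ahr. Alternatives covered the replicate block, pseudocounts, filters, scalings, variance models, the length trend (loess, span 0.5), limma's voom on fragments, and leaving out each library. The remaining steps used Python 3.11.15 with numpy 2.4.6 and pandas 2.3.3.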

Additional observations from a re-analysis of the deposited data

How the results depend on the processing

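Ahr was called lower in all 25 other settings (log2 change -1.83 to -0.89) and Slc7a5 called higher in all 25. The number of called genes among all tested, 1145 here, was 457 with the replicate block, 641 without a filter on low values, 2510 with the length trend removed, 2017 with that and the block, 146 to 1709 with a library left out, and, in fits chosen after seeing the data, with the length trend removed as well, 1782, 1897 and 2514 without flavonoids replicates 1, 2 and 3 and 2239, 1325 and 1963 without untreated replicates 1, 2 and 3. Of the AHR genes, 2 called lower became 1 with the replicate block (Aldh3a1 adjusted p = 0.0663), without a filter (0.0686) and at a minimum mean of 5 FPKM, where Aldh3a1 was not tested, 1 to 2 with a library left out and 2 to 3 with the length trend removed too. The number called higher stayed at 0 except for 1, Cyp1b1, in those last fits (0 to 1). Listed genes called higher, 3 here, were 1 with the replicate block, 5 with the length trend removed and 5 with that and the block, 1 to 4 with a library left out and 4 to 6 with the trend removed too. Listed genes called lower, 2 here, were 1 with the block, 1 without a filter, 1 with median-ratio scaling, 0 to 2 with a library left out and 2 to 4 with the trend removed too. The longer promoter motif was held by 1 of the AHR genes, against 5 for the core. The cause of these shifts was not tested. Por and Ephx1 were never called, and their estimates were above 0 in 7 and 2 of 25 settings. Libraries that share a replicate number did not deviate together (correlations of deviations -0.14, -0.12 and -0.20). Those deviations still held the length trend, which differs between libraries, so they cannot decide whether equal numbers mark a shared culture. Under the replicate block the calls of Hes1 (0.0511), Hmox1 (0.0563) and Aldh1a1 (0.0840) were also lost, as was that of Tiparp with the length trend removed (0.0743). Ahrr and Cyp1a1 rest on too few fragments for a comparison.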
